A study of Homo sapiens with 24 samples.

Results

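The genes described here are LAMA3 and LAMB3, which encode chains of laminin-332, and the integrin subunit genes ITGA2, ITGA3, ITGA6, ITGAV, ITGB1, ITGB4 and ITGB6. They were chosen by symbol: 9 of the 61860 Ensembl identifiers in each count table carry one of these names. The list was drawn up with earlier results of these data known. Its counts and medians beside those of all genes are therefore descriptions and no test of the list. The data are RNA-seq counts from OE33, an adenocarcinoma line of the lower esophagus, in 4 experiments with 3 treated and 3 control libraries each, 24 libraries in all. Each experiment had its own controls, and no library served in more than 1 of them.

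In the first experiment OE33 cells were injected under the skin of nude mice, 4 weeks old when bought. The mice had been kept for 8 weeks on a high-fat diet (HFD) or, as controls, on normal diet (ND). The diets were continued after the injection, and the tumors were taken after 21 days. The other experiments used cultured OE33 cells. They carried an HA-TRIM15 plasmid or the empty vector (EV) for 48 h, shYY2 or shControl for 72 h, or shFOXRED1 or a separate shControl for 72 h. TRIM15 is a ubiquitin ligase of the tripartite motif family, YY2 a zinc finger transcription factor, and FOXRED1 an assembly factor of mitochondrial complex I. Every group shares the OE33 background, so the data describe 1 cell line, and the labels do not say whether replicates were separate cultures or mice. The p-values therefore measure only the spread between these libraries, which may be technical.

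Laminin-332 is a basement membrane protein made of several chains, to which epithelial cells attach. Integrins are cell surface receptors made of 1 alpha and 1 beta subunit, and the combination decides what they bind. In glandular and squamous epithelia, the laminin-binding integrins hold cells on their basement membrane and pass signals about that contact to the cytoskeleton.

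LAMA3 (ENSG00000053747, chr18:23689443-23956222) encodes the alpha 3 chain and LAMB3 (ENSG00000196878, chr1:209614870-209652466) the beta 3 chain. ITGA2 (ENSG00000164171, chr5:52989326-53094779) pairs with ITGB1 to form a collagen receptor that also binds laminins. ITGA3 (ENSG00000005884, chr17:50055968-50090481) pairs with ITGB1 to form a laminin receptor. ITGA6 (ENSG00000091409, chr2:172427354-172506282) pairs with ITGB4 (ENSG00000132470, chr17:75721328-75757818) in hemidesmosomes, or with ITGB1. ITGAV (ENSG00000138448, chr2:186590065-186680901) pairs with ITGB6 (ENSG00000115221, chr2:160099666-160200313), an epithelial receptor that activates latent TGF-beta, and with several other beta subunits. ITGB1 (ENSG00000150093, chr10:32900319-33005792) is the beta subunit shared by the largest number of alpha subunits. Gene positions are those of GENCODE 29 on GRCh38.

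The promoters of 4 members are shown because 1 experiment lowered a transcription factor, YY2, and because ITGAV and ITGB6 moved closely together. The windows are from RefSeq on GRCh38.p14, run from 250 bases before to 50 after a transcription start, and matched 7 of the 9 members, all but ITGA3 and ITGB4, with 12 windows in total. They were searched on both strands for AANATGG, the core recognised by YY factors, and TGANTCA, the site of AP-1, which reads the same on either strand. No match of one motif overlapped a match of the other. Capitals mark the matches, and each line reads 5′ to 3′ on the strand of the gene. The LAMA3 window is chr18:23872770-23873069 (plus strand), inside the gene and downstream of its first annotated base. The LAMB3 window shown is chr1:209651325-209651624 (minus strand) and the ITGAV window shown is chr2:186599955-186600254 (plus strand). Both also lie inside their genes and were shown for the match they hold. The other windows of these genes, 2 for LAMB3 and 1 for ITGAV, lie nearer to the start of the gene and hold neither motif. The ITGB6 window is chr2:160200223-160200522 (minus strand).
LAMA3: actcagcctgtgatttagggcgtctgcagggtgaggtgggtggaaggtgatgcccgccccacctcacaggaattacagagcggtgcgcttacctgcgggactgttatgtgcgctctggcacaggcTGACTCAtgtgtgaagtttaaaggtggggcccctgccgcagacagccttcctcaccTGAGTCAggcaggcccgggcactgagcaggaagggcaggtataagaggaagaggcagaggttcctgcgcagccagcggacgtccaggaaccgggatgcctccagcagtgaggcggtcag
LAMB3: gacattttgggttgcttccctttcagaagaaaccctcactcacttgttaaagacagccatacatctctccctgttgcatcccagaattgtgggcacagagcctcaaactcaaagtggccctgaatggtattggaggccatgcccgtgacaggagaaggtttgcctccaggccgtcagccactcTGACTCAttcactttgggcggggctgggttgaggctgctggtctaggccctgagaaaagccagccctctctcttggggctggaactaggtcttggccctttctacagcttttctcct
ITGAV: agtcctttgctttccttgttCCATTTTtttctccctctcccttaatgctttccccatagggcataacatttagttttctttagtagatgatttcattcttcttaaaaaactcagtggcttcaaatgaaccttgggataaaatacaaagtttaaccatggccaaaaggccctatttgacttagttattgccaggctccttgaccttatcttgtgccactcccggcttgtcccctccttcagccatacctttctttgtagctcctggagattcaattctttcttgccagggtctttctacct
ITGB6: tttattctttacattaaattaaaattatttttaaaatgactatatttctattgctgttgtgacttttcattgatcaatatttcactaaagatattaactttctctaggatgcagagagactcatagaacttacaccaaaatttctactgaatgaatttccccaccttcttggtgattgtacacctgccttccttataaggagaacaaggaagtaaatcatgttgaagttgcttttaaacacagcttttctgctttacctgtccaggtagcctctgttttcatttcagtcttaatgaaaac
The LAMA3 window holds 2 AP-1 matches and the LAMB3 window shown 1, and these were the only 2 of the 12 windows with one, against 7.71% of 35116 promoters of all genes. The YY core was found in 1 of the 12 windows, the ITGAV window shown, against 15.6% of all promoters. The ITGB6 window holds neither. A match is a string of letters and not a measured binding site.

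Total counts per library ranged from 14299807 to 45994561. Every member was far above the low-count filter in all 24 libraries, so all 9 were tested in each experiment. The targeted genes followed the labels: TRIM15 had 111 to 181 counts with HA-TRIM15 and 0 with EV, YY2 had 11 to 12 counts with shYY2 and 40 to 46 with shControl, and FOXRED1 had 8.83 to 11.2 CPM with shFOXRED1 and 17.2 to 17.7 with shControl. CPM are counts scaled to a fixed library size after TMM normalization. The 8 epithelial markers summed to between 10345 and 15627 CPM in all libraries, whereas 8 fibroblast markers summed to at most 44.1 CPM, 5 leukocyte markers to at most 16.4, 5 endothelial markers to at most 0.958 and 5 adipose and muscle markers to at most 1.83. The defining markers of the labelled epithelial cells were thus present. In bulk RNA, fewer cells expressing a gene and less RNA per cell cannot be told apart.

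Levels were compared between genes per kilobase of exon. LAMA3 was among the lowest of the 9 members, with 41.6 CPM per kb in ND xenografts and 50.9 in EV cells. This rank depends on the length used, the union of all annotated exons, which at 14678 bases was longest for LAMA3. In plain CPM LAMA3 was at 611 in ND xenografts. That was above ITGB4 (471), ITGA6 (389.6), ITGAV (236) and ITGB6 (72.5) and below the other members. ITGB1 and LAMB3 led in the ND xenografts, with 230 and 222 CPM per kb, and their ranges over libraries overlapped, as did those of ITGA2 (117) and ITGA3 (116). The lowest member there was ITGB6, at 15.5 ± 0.449 CPM per kb (SD, n = 3). In the control cells of the FOXRED1 experiment the order differed, with ITGB1 at 307, ITGA2 at 250.4, LAMB3 at 140.4 and ITGA6 at 110.5 CPM per kb. ITGAV followed at 104, and its libraries overlapped those of ITGA6. The 4 tables were normalized separately, so levels set across them are descriptions only.

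The first comparison asks what a high-fat diet of the host does to these genes in the tumor. In HFD xenografts 8 of the 9 members were higher than in ND xenografts and none was lower (edgeR's quasi-likelihood test, Benjamini-Hochberg adjusted p under 0.05 over 17012 genes). Among all genes tested, 25.6% were higher and 23.9% lower. The median log2 fold change of the members was 0.40, against -0.012 over all genes. ITGAV and ITGB6, the 2 subunits of the TGF-beta-activating receptor, had the largest changes of the list, and LAMA3 was the member that did not pass.

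ITGAV had 405, 423 and 405 CPM in the HFD xenografts and 229, 240 and 239.5 in the ND xenografts. The groups stood far apart, with a log2 fold change of 0.80 ± 0.036 (SE; edgeR, adjusted p = 3.22e-11), or 1.74-fold. ITGB6 had 118, 111 and 114 CPM against 73.8, 73.6 and 70.1. It was 1.58-fold higher, a log2 fold change of 0.66 ± 0.039 (SE; edgeR, adjusted p = 9.52e-10), again without overlap.

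The alpha subunits of the laminin and collagen receptors rose less evenly. ITGA6 had 557, 551 and 551 CPM with HFD and 395, 380.4 and 394 with ND, a log2 fold change of 0.50 ± 0.033 (SE; edgeR, adjusted p = 2.6e-09). ITGA2 had 1270.2, 1288 and 1271 against 939, 945 and 892 CPM, with 0.46 ± 0.033 (SE; edgeR, adjusted p = 7.95e-09). In both genes the lowest HFD library lay above the highest ND library. ITGA3 rose by 0.16 and ITGB1, the beta partner of ITGA2 and ITGA3, by 0.16 on the log2 scale (edgeR, adjusted p = 0.00108 and 0.000547). ITGB4, at 511 to 519 CPM against 446 to 502, rose by 0.13 (edgeR, adjusted p = 0.0144), and this call was lost without ND replicate 3 (edgeR, adjusted p = 0.0545).

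LAMA3 and LAMB3 did not move together. LAMB3 had 1419, 1349 and 1347 CPM with HFD and 1014, 1098 and 1012 with ND, a log2 fold change of 0.40 ± 0.038 (SE; edgeR, adjusted p = 2.51e-07). LAMA3 had 641, 625 and 609.6 CPM against 626, 605 and 600.2, and these overlapped, with a log2 fold change of 0.03 (95% interval -0.04 to 0.11; edgeR, adjusted p = 0.439). The groups of 8 of the 9 members did not overlap, as was so for 56.2% of all genes tested.

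Other genes of the same system gave mixed counts. Of the other integrin subunits, 4 of 12 tested were higher and 4 lower, and of the other laminin chains 2 of 6 were higher and 1 lower. Of the 29 tested genes of the integrin adhesion complex, which links integrins to actin, 12 were higher and 5 lower, the median being 0.084. Of the other integrin ligands and laminin processing enzymes, 8 of 12 were higher and 1 was lower, with a median of 0.24. The hemidesmosome and basement membrane anchors had 4 of 7 higher and 2 lower. Changes of at least 1 on the log2 scale were seen in ITGA10, a collagen receptor subunit of cartilage, which was lower with HFD (0.401 ± 0.112 against 3.03 ± 0.294 CPM, SD, n = 3, edgeR, adjusted p = 1.11e-08), and in LAMA4, a laminin chain of vessels, at 0.227 against 0.538 CPM (edgeR, adjusted p = 0.0144). Beside these values, the epithelial markers summed to 12789 to 12955 CPM with HFD and 11789 to 12019 with ND. Of these 8 markers 5 were called higher and 1 lower. The fibroblast markers summed to 23.8 to 27.2 and 30.6 to 33.6 CPM. LUM was at 0 in the HFD group and PDGFRA and DCN in the ND group. The leukocyte markers summed to 9.01 to 10.1 CPM with HFD and 11.4 to 12.3 with ND, with none at 0. Their part in the result was not tested, and the treatment of reads from the mouse is not given in the sources used here.

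The second comparison asks what TRIM15 overexpression changes in the same cells in culture. With HA-TRIM15, 7 members were higher than with EV and 1, ITGA3, was lower, where 12.5% and 9.53% of the 15745 genes tested were higher and lower (edgeR's quasi-likelihood test, Benjamini-Hochberg adjustment). The median log2 fold change of the members was 0.14, against -0.0065 over all genes. Most changes were small, and LAMB3 stood out by size.

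LAMB3 had 1372, 1267 and 1221 CPM with HA-TRIM15 and 842, 832 and 855 with EV. It was 1.53-fold higher, a log2 fold change of 0.61 ± 0.037 (SE; edgeR, adjusted p = 2.97e-08), and each treated library was above every control library. LAMA3 had 773, 802 and 805 CPM against 738, 744 and 758, a log2 fold change of 0.09 ± 0.029 (SE; edgeR, adjusted p = 0.0404). That call rests on the full set of libraries: leaving out 1 library at a time ended it in 5 of 6 fits, all except the one without HA-TRIM15 replicate 1, with adjusted p-values of up to 0.186 in edgeR.

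Among the integrins, ITGA2 had 1672, 1762 and 1826 CPM with HA-TRIM15 and 1442, 1437 and 1454 with EV, a log2 fold change of 0.28 ± 0.031 (SE; edgeR, adjusted p = 1.7e-05). ITGB6 rose by 0.21, ITGAV by 0.17 and ITGA6 by 0.14 on the log2 scale, all without overlap of the groups (edgeR, adjusted p between 0.00249 and 0.00404). ITGB1 had 1579, 1667 and 1767 CPM against 1547, 1531 and 1541, with 0.12 ± 0.034 (SE; edgeR, adjusted p = 0.0233). It too lost its call in 5 of 6 fits without 1 library, all except the one without HA-TRIM15 replicate 1, with adjusted p-values of up to 0.0973 in edgeR.

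ITGA3 went the other way, with 1094, 983 and 969 CPM against 1164, 1131 and 1164, a log2 fold change of -0.18 ± 0.039 (SE; edgeR, adjusted p = 0.00394). ITGB4 had 505, 448 and 449 CPM against 498, 485 and 494. Its groups overlapped because of HA-TRIM15 replicate 1, and its log2 fold change was -0.08 (95% interval -0.16 to 0.01; edgeR, adjusted p = 0.212). Without that library it was -0.136 (edgeR, adjusted p = 0.00026). HA-TRIM15 replicate 1 was the highest of its group in LAMB3, ITGA3 and ITGB4 and the lowest in the other members. The groups of 8 members did not overlap, as for 37.7% of all genes.

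Of the other lists, the 28 tested genes of the integrin adhesion complex held 4 higher and 2 lower, with a median of -0.044, and the other integrin subunits 3 higher and 0 lower of 10. The other integrin ligands and laminin processing enzymes held 3 higher and 3 lower of 12, and the other laminin chains 0 higher and 1 lower of 5. The hemidesmosome and basement membrane anchors held 2 higher and 0 lower of 7. No gene of these lists changed by 1 or more on the log2 scale. The summed epithelial markers, 10345 to 11478 CPM with HA-TRIM15 and 11024 to 11292 with EV, overlapped, although 4 of the 8 were called higher and 2 lower. The fibroblast markers summed to 11.2 to 11.9 CPM against 12.3 to 13.7, with PDGFRA and DCN at 0 with HA-TRIM15, and the leukocyte markers to 6.53 to 7.61 CPM against 5.28 to 5.49, with none at 0. Neither pair overlapped, and their part in the result was not tested.

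**Figure D1:**
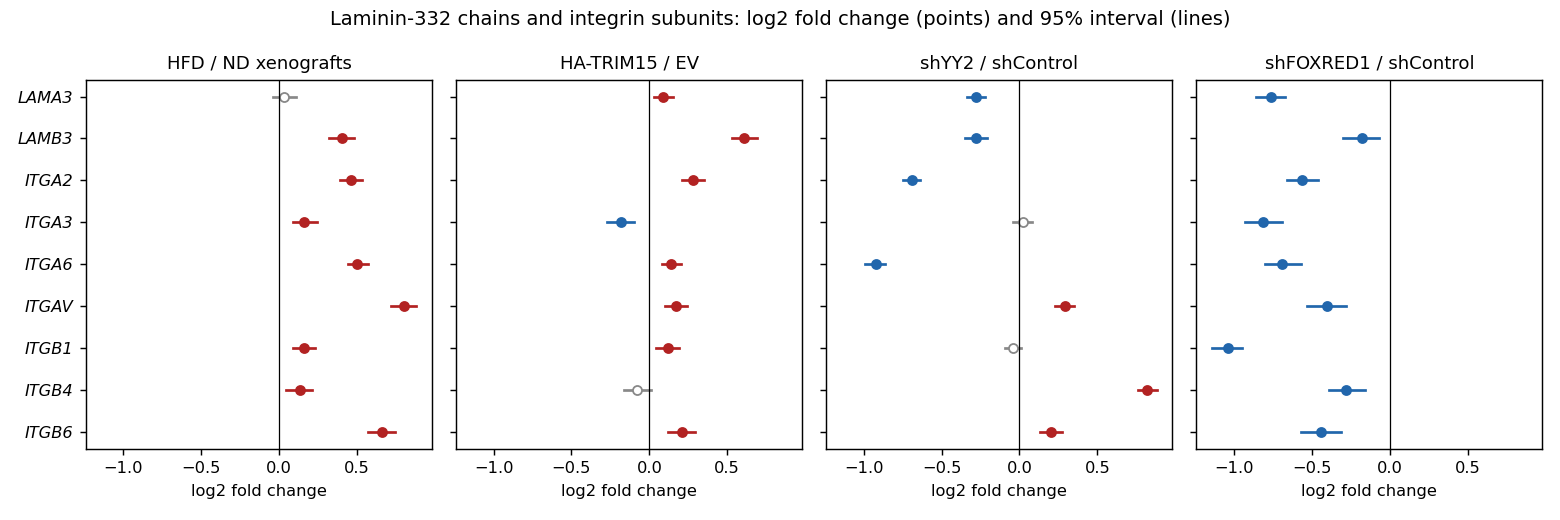
Log2 fold change of treated over control libraries (points) with 95% intervals (lines) for the 9 members in the 4 experiments; red marks genes called higher, blue genes called lower, and open grey points genes past no threshold (edgeR, adjusted p under 0.05). The points lie mostly to the right in the HFD and HA-TRIM15 panels, on both sides from -0.92 (ITGA6) to 0.82 (ITGB4) with shYY2, and all to the left with shFOXRED1.

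Knockdown of YY2 split the list. With shYY2, 3 members were higher and 4 lower than with shControl, where 36.8% and 38.1% of the 16006 genes tested were higher and lower (edgeR's quasi-likelihood test, Benjamini-Hochberg adjustment). The counts thus lie near those of all genes, and the median log2 fold change of the members was -0.043, against -0.0081. The largest changes were those of ITGB4 and ITGA6, partners in the hemidesmosome, and they had opposite directions.

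ITGB4 had 787, 785 and 778 CPM with shYY2 and 454, 453 and 424 with shControl, 1.77-fold higher, with a log2 fold change of 0.82 ± 0.030 (SE; edgeR, adjusted p = 8.16e-13). ITGA6 had 348, 369.8 and 362 CPM against 687, 680.2 and 682. It was 1.90-fold lower, a log2 fold change of -0.92 ± 0.029 (SE; edgeR, adjusted p = 1.23e-13). Neither gene's groups came near each other.

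ITGA2 had 824, 822 and 802 CPM with shYY2 and 1299, 1306 and 1347 with shControl, with a log2 fold change of -0.69 ± 0.026 (SE; edgeR, adjusted p = 1.08e-12). The subunits of the TGF-beta-activating receptor rose: ITGAV by 0.29 ± 0.029, from 396 to 400.4 CPM up to 469 to 498, and ITGB6 by 0.20 ± 0.034 on the log2 scale, from 78.5 to 81.7 CPM up to 90.2 to 93.3 (SE; edgeR, adjusted p = 1.98e-07 and 5.38e-05). ITGA3 had a log2 fold change of 0.02 (95% interval -0.04 to 0.08; edgeR, adjusted p = 0.586) and ITGB1 of -0.04 (95% interval -0.09 to 0.01; edgeR, adjusted p = 0.102), and with the replicate number as a block in the model ITGB1 passed the threshold (edgeR, adjusted p = 0.0465).

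LAMA3 and LAMB3 both fell. LAMA3 had 482, 477 and 471 CPM with shYY2 and 582, 587 and 567 with shControl, and LAMB3 had 1119, 1137 and 1105 against 1396, 1414 and 1281. Each fell by 0.28 on the log2 scale (edgeR, adjusted p = 9.4e-08 and 1.18e-06). The groups did not overlap in 8 of the 9 members, all but ITGA3, as for 76.3% of all genes.

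Around them, several adhesion genes changed more than any member. FERMT1, the kindlin that activates integrins in epithelia, was at 89.1 ± 1.33 CPM with shYY2 and 391 ± 4.40 with shControl (SD, n = 3), a log2 fold change of -2.13 (edgeR, adjusted p = 3.73e-17). LAMA5, the alpha chain of laminin-511, was at 2531 against 1229 CPM and ITGB8, another partner of ITGAV, at 128 against 62.1 CPM, each with a log2 fold change of 1.04 (edgeR, adjusted p = 6.16e-13 and 1.2e-13). HSPG2, which encodes the basement membrane proteoglycan perlecan, rose by 1.01 (edgeR, adjusted p = 1.27e-11).

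Of the other integrin ligands and laminin processing enzymes, 10 of 12 were higher and 2 lower with shYY2, the median being 0.57. The secreted integrin ligands CCN2 (157 against 15.1 CPM), CCN1 (680.1 against 168 CPM) and THBS1 (90.8 against 39.1 CPM) rose by 3.37, 2.02 and 1.21, whereas TNC, tenascin-C, fell from 62.1 to 30.3 CPM (edgeR, adjusted p at most 5.24e-12). Of the other integrin subunits, 6 of 11 were higher and 2 lower, led by ITGAX (11.6 against 2.12 CPM) and ITGA2B (1.10 against 0.287 CPM), which are known from leukocytes and platelets. Of the integrin adhesion complex, 13 of 29 were higher and 12 lower, among them the scaffold TNS1 (1.19 against 0.253 CPM) and TLN2 (1.57 against 3.61 CPM), an adaptor of the talin family. Of the other laminin chains 4 of 5 were higher and 1, LAMA2 (1.56 against 3.25 CPM), was lower, and of the hemidesmosome and basement membrane anchors 3 of 7 were higher and 3 lower.

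Cell type markers moved with this knockdown, as did most genes. The epithelial markers summed to 15101 to 15627 CPM with shYY2 and 11141 to 11851 with shControl. Of these 8 markers 5 were called higher and 3 lower, where 36.8% and 38.1% of all genes were. The fibroblast markers summed to 42.6 to 44.1 CPM against 10.9 to 11.7, with COL1A1 the only one of the 8 high enough to be tested and PDGFRA at 0 in the shYY2 group. The leukocyte markers summed to 6.03 to 7.26 CPM against 10.6 to 12.2 with shControl, with PTPRC and CD68 at 0 with shYY2. The adipose and muscle markers summed to 0.84 to 1.83 CPM against 0.22 to 0.354, with ADIPOQ at 0 in both groups. PLIN1 was the only marker of that list high enough to be tested and was called higher. Their part in the members' changes was not tested.

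**Figure D2:**
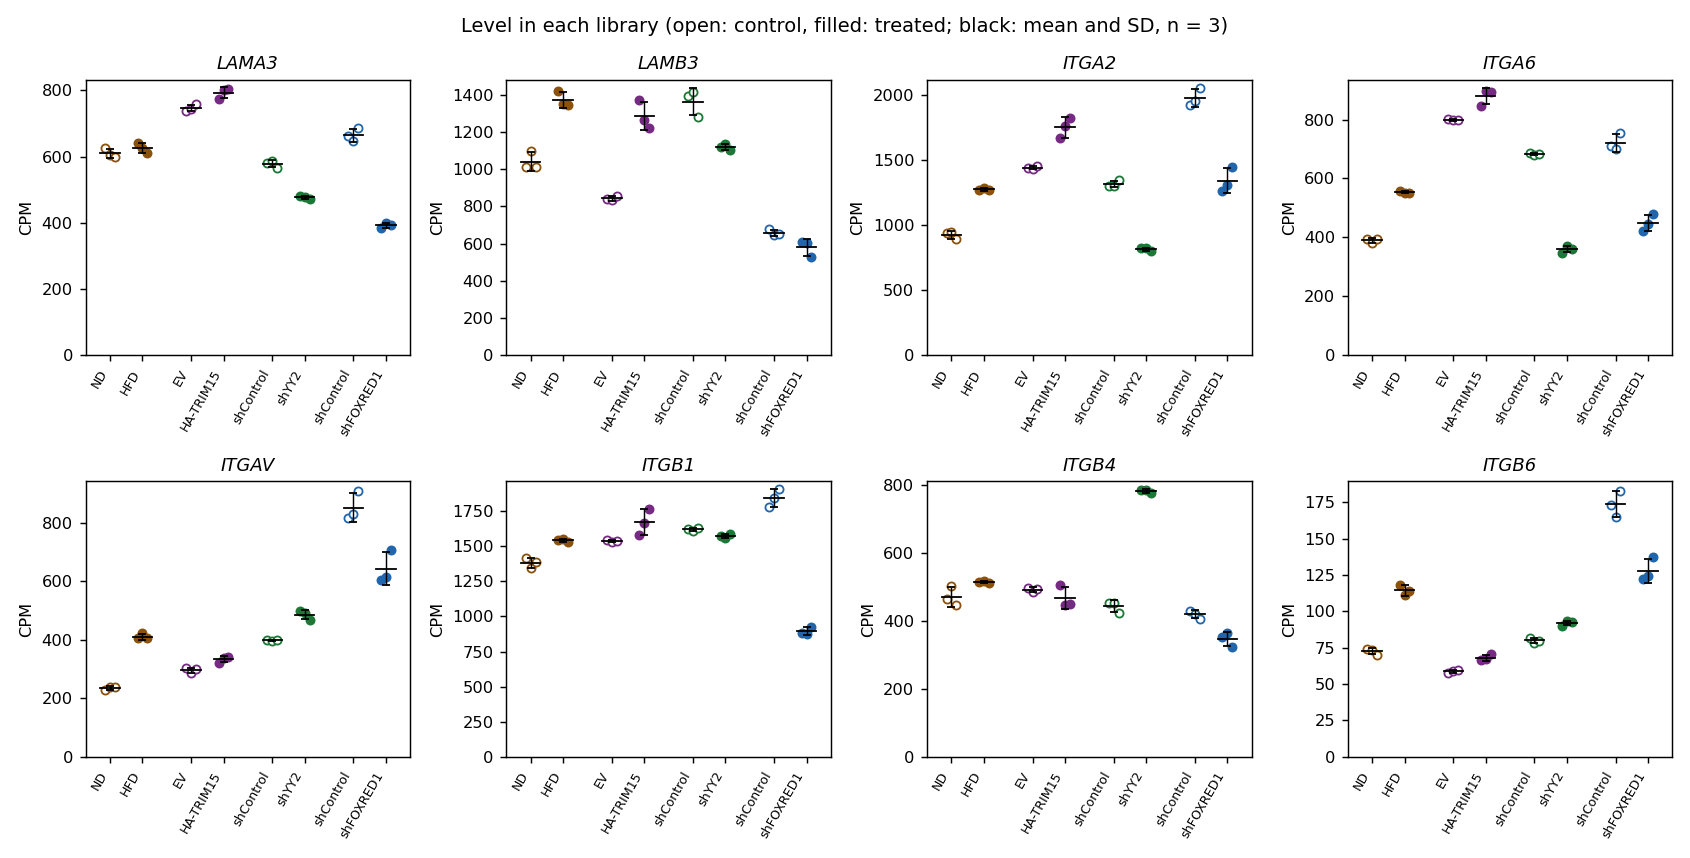
CPM of 8 members in each of the 24 libraries (ITGA3 is not drawn), with open points for control and filled points for treated libraries and the mean and SD of each group in black. ITGB4 stands at 778 to 787 CPM in the shYY2 libraries and at 323 to 519 in all others, while ITGB1 is at 873 to 928 CPM with shFOXRED1 and at 1346 to 1909.5 elsewhere.

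With knockdown of FOXRED1, all 9 members were lower than with shControl, where 19.7% of the 15730 genes tested were lower and 16.8% higher (edgeR's quasi-likelihood test, Benjamini-Hochberg adjustment). The median log2 fold change of the members was -0.56, against 0.012 over all genes. The groups of all 9 members did not overlap, as for 46.7% of all genes. The beta 1 subunit fell most and the laminin beta 3 chain least.

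ITGB1 had 882, 873 and 928 CPM with shFOXRED1 and 1779.8, 1845 and 1909.5 with shControl, 2.06-fold lower, with a log2 fold change of -1.04 ± 0.043 (SE; edgeR, adjusted p = 1.87e-11). The alpha subunit ITGA3 had 505, 519 and 438 CPM against 876, 868 and 819, with -0.81 ± 0.058 (SE; edgeR, adjusted p = 1.07e-08). ITGA6 had 423, 445 and 479 against 709, 700 and 756 CPM, with -0.69 ± 0.053 (SE; edgeR, adjusted p = 2.64e-08). In each of these genes every knockdown library was well under the lowest control.

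ITGA2 had 1267, 1313 and 1450.5 CPM against 1929.8, 1954 and 2058, a log2 fold change of -0.56 ± 0.049 (SE; edgeR, adjusted p = 1.25e-07). ITGB6 fell by 0.44, ITGAV by 0.40 and ITGB4 by 0.28 on the log2 scale (edgeR, adjusted p = 2.33e-05, 4.07e-05 and 0.000545). These 3 were closer to their controls, with ITGAV at 605 to 709 CPM against 817 to 908 and ITGB4 at 323 to 364 against 407 to 431.

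The LAMA3 and LAMB3 chains fell unequally. LAMA3 had 385, 399 and 392 CPM with shFOXRED1 and 662, 647 and 686 with shControl, a log2 fold change of -0.76 ± 0.046 (SE; edgeR, adjusted p = 1.49e-09). LAMB3 had 608, 603 and 528 CPM against 676, 648 and 650.4. Its log2 fold change was -0.18 ± 0.054 (SE; edgeR, adjusted p = 0.0124), and the call was lost without replicate 1 of the shControl libraries (edgeR, adjusted p = 0.065). The library shFOXRED1 replicate 3, with the lowest total count of all, was the lowest of its group in LAMB3, ITGA3 and ITGB4. In ITGA2, ITGA6, ITGAV, ITGB1 and ITGB6 that library was the highest of its group.

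ITGB1 has a processed copy in the genome, ITGB1P1 (ENSG00000269378), whose count was 2.81% to 5.47% of that of ITGB1 in the 24 libraries, so some reads of the copy and the gene may have been exchanged in counting. The share was 2.81% to 3.08% in the FOXRED1 experiment and at least 4.19% in the others. With shFOXRED1 the log2 fold change of the copy was -1.06 ± 0.078 (SE; edgeR, adjusted p = 1.43e-08), close to that of ITGB1, and with shYY2 it was 0.03 (edgeR, adjusted p = 0.522). With HFD the copy rose by 0.18 (edgeR, adjusted p = 0.0145), where ITGB1 rose by 0.16. With HA-TRIM15 it was at -0.02 (edgeR, adjusted p = 0.802), where ITGB1 was called higher by 0.12. The RNAs ITGA2-AS1, ITGA6-AS1 and ITGB1-DT, transcribed next to or opposite to their members, had at most 0.0886%, 0.07% and 0.725% of the count of their neighbour.

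Of the integrin adhesion complex, 13 of 28 were lower and 6 higher with shFOXRED1, of the other integrin ligands and laminin processing enzymes 6 of 13 were lower and 1 higher, and of the hemidesmosome and basement membrane anchors 3 of 7 were lower and 0 higher. The other laminin chains had 3 of 5 lower, and the other integrin subunits 3 of 10 lower and 1 higher. Falls of at least 1 on the log2 scale were seen for CCN2 (1.96 against 7.29 CPM, edgeR, adjusted p = 2.22e-06), the focal adhesion protein TNS4 (0.400 against 1.42 CPM, edgeR, adjusted p = 0.00273) and ITGB7 (0.310 against 0.847 CPM, edgeR, adjusted p = 0.0232). The summed epithelial markers, at 12521 to 14474 CPM with shFOXRED1 and 13153 to 13767 with shControl, overlapped, although 1 of the 8 was called higher and 2 lower. The fibroblast markers summed to 38.5 to 42 CPM against 24.3 to 25.6, with COL1A2, PDGFRA and DCN at 0 in both groups, and COL3A1 also at 0 with shControl. The leukocyte markers summed to 11.2 to 15.3 CPM against 14.7 to 16.4, which overlapped, with PTPRC at 0 with shControl. The part of these markers was not tested.

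YY2 and FOXRED1 were both lowered by shRNA in cultured cells with separate controls, so the 2 effects were compared in 1 fit. FOXRED1 itself was at 16.1 to 19.0 CPM with shYY2 and at 32.1 to 33.6 in its shControl libraries. The shYY2 effect was higher than the shFOXRED1 effect in 6 of the 9 members and lower in 1, where 26.4% and 28.0% of 17146 genes were higher and lower (edgeR's quasi-likelihood test of the difference, Benjamini-Hochberg adjustment). The largest differences were 1.10 ± 0.062 for ITGB4, which rose with one knockdown and fell with the other, and 1.00 ± 0.049 for ITGB1 (log2 differences with SE; edgeR, adjusted p = 3.28e-12 and 2.53e-13). ITGA6 was the 1 member with a called difference in the other direction, its fall being greater with shYY2 by 0.24 (edgeR, adjusted p = 0.00221).

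For 2 members no difference passed in the fit without a replicate block. It was -0.13 for ITGA2 (95% interval -0.25 to -0.01; edgeR, adjusted p = 0.0655) and -0.10 for LAMB3 (95% interval -0.24 to 0.04; edgeR, adjusted p = 0.212). Each passed without some libraries of the FOXRED1 experiment. ITGA2 passed without shFOXRED1 replicate 1 or without shControl replicate 3 (edgeR, adjusted p = 0.0138 and 0.0321), and LAMB3 passed without shFOXRED1 replicate 3 (edgeR, adjusted p = 0.00511). With the replicate number as a block within each experiment, ITGA2 passed and LAMB3 did not (edgeR, adjusted p = 0.00439 and 0.0619).

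The effects of HFD in the xenografts and of HA-TRIM15 in culture were compared in the same way, because TRIM15 also had 12 to 24 counts in the HFD xenografts against 0 to 1 in the ND xenografts. Tumor and culture differ between these experiments as well, and this cannot be told apart from the difference between diet and plasmid. The HFD effect was higher in 6 members and lower in 1, where 21.5% and 13.6% of 17160 genes were higher and lower (edgeR's quasi-likelihood test of the difference, Benjamini-Hochberg adjustment). ITGAV differed most, by 0.66 ± 0.049, followed by ITGB6 with 0.48 ± 0.056 and ITGA6 with 0.40 ± 0.044 (log2 differences with SE; edgeR, adjusted p at most 8.86e-07). LAMB3 was the 1 member called with a greater rise under HA-TRIM15, the difference being -0.18 ± 0.056 (SE; edgeR, adjusted p = 0.0145). LAMA3 (-0.02, 95% interval -0.12 to 0.07) and ITGB1 (0.07, 95% interval -0.03 to 0.17) did not pass (edgeR, adjusted p = 0.734 and 0.292).

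Since an integrin needs both subunits, and laminin-332 both the LAMA3 and the LAMB3 chain, the ratio of partner counts was taken within each library, where library size plays no part. In total 7 ratios were compared in 4 experiments, 28 comparisons, and in 20 of them treated and control libraries did not overlap. No share was computed for ratios of other gene pairs, so this count is a description and no result about partners. For single genes the share without overlap was 37.7% with HA-TRIM15 and 76.3% with shYY2, with the other experiments between these. With 3 against 3 libraries the exact permutation test (two-sided) cannot go below p = 0.1, or 0.14 after Benjamini-Hochberg adjustment over the 28, so none could pass 0.05.

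The ITGA6 to ITGB4 ratio moved most with shYY2. Its log2 value was 0.62 ± 0.054 with shControl and -1.12 ± 0.049 with shYY2 (SD, n = 3), a shift of -1.75. It also shifted by 0.37 with HFD, by 0.22 with HA-TRIM15 and by -0.41 with shFOXRED1. The ITGAV to ITGB1 ratio moved most with HFD and with shFOXRED1, by 0.64 in each, and shifted by 0.33 with shYY2 and by 0.05 with HA-TRIM15. The ITGA6 to ITGB1 ratio shifted by -0.88 with shYY2 and by 0.36 with shFOXRED1.

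The LAMB3 to LAMA3 ratio was higher in 3 experiments, and it moved most with shFOXRED1, by 0.58, followed by 0.52 with HA-TRIM15. Its log2 value went from 0.77 to 1.13 with HFD, from 0.18 to 0.70 with HA-TRIM15 and from -0.02 to 0.56 with shFOXRED1, each without overlap. With shYY2 it was 1.23 ± 0.020 against 1.24 ± 0.052 (SD, n = 3), and the libraries overlapped. The ITGAV to ITGB6 ratio moved little, by 0.14 with HFD and by -0.04 to 0.09 in the cultured cells. Its treated and control libraries did not overlap with HFD and with shYY2, and overlapped with HA-TRIM15 and with shFOXRED1.

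**Figure D3:**
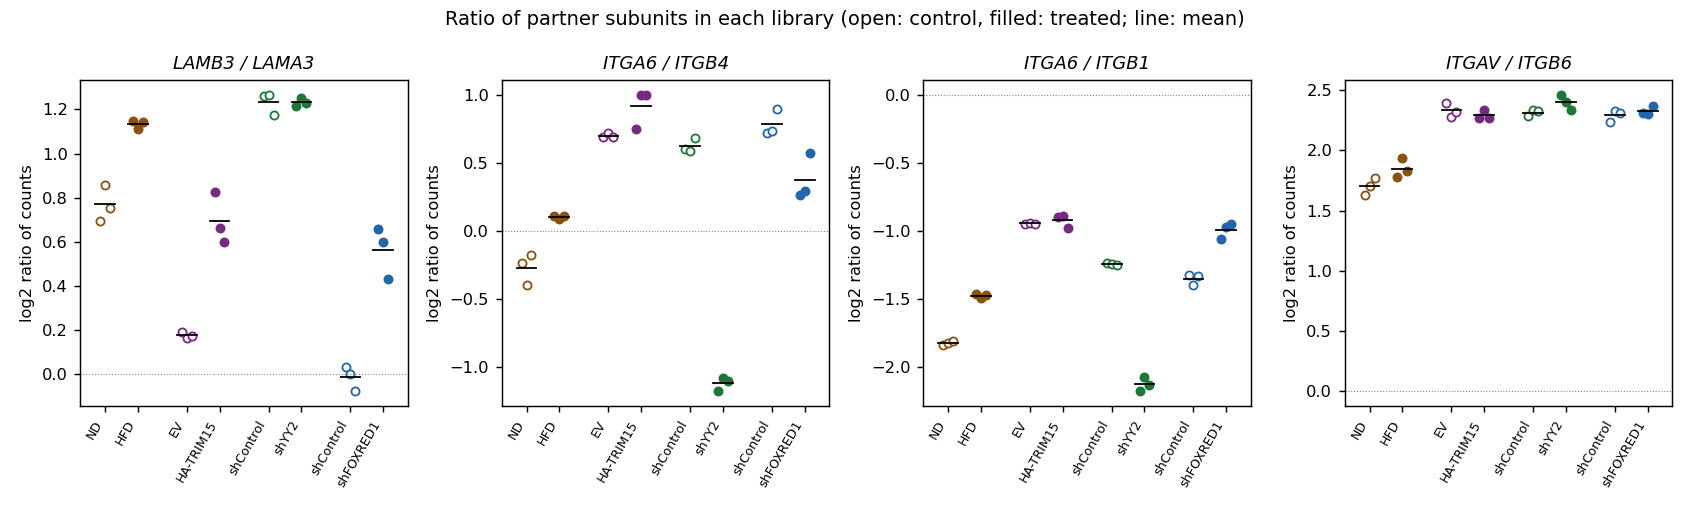
Log2 ratio of the counts of partner subunits in each of the 24 libraries, with open points for control and filled points for treated libraries and a line at each group mean. ITGA6 / ITGB4 drops to -1.12 on average with shYY2, while ITGAV / ITGB6 stays within a narrow band inside each experiment.

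The likeness of members was described by Pearson's r of log2 CPM over the 24 libraries, each experiment centred on its own mean, over 14519 genes tested in all 4. The libraries come in groups of 3 from 4 experiments and share their contrasts, so the values are descriptions. Within the list the highest were ITGA2 with ITGA6 (r = 0.98) and ITGAV with ITGB6 (r = 0.97), then LAMA3 with ITGB1 (r = 0.94) and ITGA3 with ITGB1 (r = 0.88). LAMA3 with LAMB3 gave r = 0.42. The lowest was ITGA6 with its partner ITGB4 (r = -0.46).

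Over all genes, the 3 most like LAMB3 were ICAM1 (r = 0.95), an adhesion receptor for leukocytes, IRAK2 (r = 0.925), a kinase of interleukin-1 and Toll-like receptor signaling, and the phosphatase gene PPTC7 (r = 0.909). ITGB4 was most like EML2 (r = 0.989), LAMA5 (r = 0.987) and PANX2 (r = 0.978). ITGB6 was most like SOWAHC (r = 0.977), ITGAV (r = 0.971) and the SRC family kinase gene YES1 (r = 0.97).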

How the data were processed

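The files the authors deposited hold unnormalized read counts for 61860 Ensembl identifiers, with 6 libraries in each of 4 tables. The aligner, counter and annotation are not given in the sources used here, and the submitters' processing notes list hg38 and mm10 without a role. The labels name a directional library kit and the paper a kit without that word, so counting by strand is not settled. All columns carried a sample. Groups and replicate numbers were taken from the sample labels.

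Genes were named from Ensembl and RefSeq tables (99.8% of identifiers) and lengths from GENCODE 29 exon unions. Counts were filtered with filterByExpr (minimum count 10, minimum total 15), scaled by TMM and tested with edgeR 4.0.16 (glmQLFit, glmQLFTest) in R 4.3.3, per experiment. P-values were adjusted over every tested gene by the Benjamini-Hochberg method (threshold 0.05). Differences between effects were contrasts in a fit of 12 libraries. SE is the absolute log2 fold change over the root of F. 95% intervals use its t distribution and cover the spread between libraries. Ratios were tested in scipy 1.17.1. The fit was tested on simulated data. Replicate pairs gave a chi-square per gene of 1.47 to 7.94, where sampling alone gives 1, so none was taken as a repeat of another. The highest values, 7.94 and 6.90, were those of shFOXRED1 replicate 3 with replicates 1 and 2. Those 2 gave 2.16 with each other.

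The members and the lists were chosen with earlier results of these data known. Every member is named, and from the other lists genes past the threshold with an absolute log2 fold change of at least 1, at most 4 per list and experiment. A further gene of the plan is not reported here. Alternatives were DESeq2 1.42.0 (Wald test, size factors), other count filters, leaving out each library and the replicate number as a block. Proteomic, metabolomic and CUT&Tag data were not used here.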

Additional observations from a re-analysis of the deposited data

How the results depend on the processing

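The 6 comparisons kept their counts of members past the threshold within 1.5 times under every alternative run, 74 values in all. The count with HA-TRIM15 was the least steady. It was 8 with all libraries, 9 without HA-TRIM15 replicate 1, 6 without any other single library and 7 with no filter on low counts. Of the values for single members, 646 kept their direction and side of the threshold, 13 lost the call, 6 gained one and 1 changed sign. The sign change was ITGA3 with shYY2, which was 0.02 with all libraries, lay between -0.019 and 0.03 with 1 library left out, negative without replicate 3 of its shControl group, and passed in no fit. All calls lost on leaving out a library are given in the report, as are those gained. LAMA3 with HA-TRIM15 also lost its call with no filter on low counts (edgeR, adjusted p = 0.178). Size factors in place of TMM shifted the log2 fold changes of single genes by a median of 0.013 at most over all genes of an experiment.

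With the replicate block, ITGB1 with shYY2 had a log2 fold change of -0.043 and passed (edgeR, adjusted p = 0.0465), and no other member changed its call in the 4 experiments. A replicate block within each experiment was added to the 2 differences between effects after the data had been seen. It brought ITGA2, with -0.13, past the threshold for shYY2 minus shFOXRED1 (edgeR, adjusted p = 0.00439) and changed no other call. Whether the numbers pair libraries depended on the genes used. Over all genes tested, libraries with the same number had correlated deviations of at most 0.097 in any experiment, whereas over genes of at least 10 CPM the values were 0.214, 0.127 and 0.414 in the FOXRED1 experiment and at least 1 lay under 0.1 in each other experiment. The labels give no shared culture or day, so the numbers were taken as names. Over all genes the block moved the calls with shFOXRED1 from 5752 to 6793.

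Depth did not limit the members: the lowest value in any library was 57.7 CPM.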
